A study of Rattus norvegicus with 8 samples.

Results

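Mitochondrial ribosomal protein genes, the Mrpl genes of the large subunit and the Mrps genes of the small subunit, were followed in the hippocampus of rats exposed to hypobaric hypoxia. They were chosen by symbol: every non-control probe of the array whose gene name began with Mrpl or Mrps followed by a number. This gave 81 of 30367 probes, for 70 of 26214 genes, of which 42 were Mrpl and 28 were Mrps genes. Of these, 69 genes (42 Mrpl and 27 Mrps) passed the filter on dim probes, and all 69 were well above background on each of the 8 arrays with no saturated probe. The remaining gene, Mrps28, was not well above background on any array and was not tested. Mrps22 was not among the members and is not analysed here.

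The study placed male Sprague Dawley rats in decompression chambers at a pressure equal to an altitude of 25000 ft, with an effective oxygen concentration of 8%, and profiled hippocampal total RNA on 1-colour Agilent rat arrays. There were 2 arrays for each of 4 groups: normoxic controls and rats titled day 1, day 3 and day 7 of exposure. The arrays titled day 7 carry 5 days in their exposure field, and the title is used here. The labels do not give the age of the rats, whether RNA was pooled or whether a group's arrays stand for different animals. The p-values therefore measure spread that may be only technical.

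Mitochondria carry their own ribosomes, which translate the few proteins still encoded by mitochondrial DNA, core subunits of the respiratory chain and ATP synthase. The mitochondrial ribosomal RNAs come from the mitochondrial genome, but every protein of both subunits is encoded in the nucleus, made in the cytosol and imported. Some of these proteins descend from bacterial ribosomal proteins and others were acquired in the mitochondrial lineage. In neurons the respiratory chain supplies most of the ATP that synaptic activity uses. Symbols do not always tell the position: the proteins of Mrps18a and Mrps30 sit in the large subunit, and Mrps36, whose current RefSeq symbol is Kgd4, is known as a part of the 2-oxoglutarate dehydrogenase complex. Genes are counted below by symbol, Mrpl as large and Mrps as small subunit genes. Mrps21l is listed as a separate gene from Mrps21, and the probe of Mrps21l shared no run longer than 4 of 60 bases with either Mrps21 probe.

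Since the members are nuclear genes, the stretch of DNA before their start is shown for 4 of them: Mrpl45 and Mrpl48, with the largest rises against normoxia on day 7, Mrps18b, with the largest fall, and Mrpl44, the one gene with the NRF1 core among those given whatever their result. RefSeq sequence of assembly GRCr8 was at hand for 58 promoters of 56 member genes. Each run covers the 250 bases before the start and the first 30 bases after it, written 5′ to 3′ on the strand of the gene. Capitals mark matches to GCGCATGCG, a core of the site of the transcription factor NRF1, and to CCGGAAG, a core of ETS factor sites such as that of GABP, on either strand. The first motif can match both strands 1 base apart, and both motifs are known from nuclear genes of mitochondrial proteins.
Mrpl44, chr9:88554800-88555079, plus strand: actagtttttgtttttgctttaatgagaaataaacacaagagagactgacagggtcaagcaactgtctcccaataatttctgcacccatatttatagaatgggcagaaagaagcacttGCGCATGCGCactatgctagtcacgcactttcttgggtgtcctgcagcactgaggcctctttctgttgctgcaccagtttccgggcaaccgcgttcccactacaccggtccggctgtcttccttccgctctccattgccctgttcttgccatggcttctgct
Mrpl45, chr10:82804789-82805068, plus strand: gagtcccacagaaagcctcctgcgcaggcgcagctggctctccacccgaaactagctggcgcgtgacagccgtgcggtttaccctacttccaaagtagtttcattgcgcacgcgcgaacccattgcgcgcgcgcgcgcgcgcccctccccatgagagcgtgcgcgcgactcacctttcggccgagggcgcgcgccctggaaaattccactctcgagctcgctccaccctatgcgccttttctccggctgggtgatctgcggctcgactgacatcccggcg
Mrpl48, chr1:164351347-164351626, minus strand: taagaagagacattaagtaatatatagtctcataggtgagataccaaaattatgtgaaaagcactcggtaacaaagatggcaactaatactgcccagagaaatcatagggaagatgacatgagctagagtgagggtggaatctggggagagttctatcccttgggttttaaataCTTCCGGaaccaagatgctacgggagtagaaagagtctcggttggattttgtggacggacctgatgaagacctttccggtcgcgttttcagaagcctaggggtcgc
Mrps18b, chr20:2842756-2843035, plus strand: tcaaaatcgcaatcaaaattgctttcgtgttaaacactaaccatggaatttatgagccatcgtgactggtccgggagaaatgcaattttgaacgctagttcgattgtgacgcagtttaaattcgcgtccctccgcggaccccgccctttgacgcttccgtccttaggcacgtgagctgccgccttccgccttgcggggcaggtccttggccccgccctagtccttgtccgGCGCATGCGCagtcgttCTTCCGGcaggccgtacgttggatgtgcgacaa

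The window searched ran to 50 bases after the start. The ETS core was present in 18 of the 58 member promoters (31.0%), against 8.75% of 33469 promoters of the same length and 10.7% of the 21842 promoters of protein-coding genes. The NRF1 core was present in 5 member promoters (8.62%), those of Mrpl17, Mrpl22, Mrpl32, Mrpl44 and Mrps18b, against 1.52% of all promoters and 1.92% of those of protein-coding genes. Mrps18b was the only member whose window held both. The windows of Mrpl46 and Mrps11, which lie head to head on chromosome 1, share 267 bases. On day 7 the 18 genes with the ETS core held 8 called higher and 4 called lower with a median change of 0.17, against 24 higher and 6 lower of 38 genes without it with a median of 0.23. Of the 5 genes with the NRF1 core, 4 were called higher on day 7 and 1, Mrps18b, lower. Among the 4 is Mrpl17 (0.17, adjusted p = 0.032), whose dimmer probe was called lower; its call was lost with normexp correction, in the fit of 2 groups, and without either normoxia array, either day 1 array or day 7 replicate 1 (adjusted p = 0.0617 to 0.126), and its change turned negative under quantile scaling, with the brightness trend removed and with probes averaged. The difference between these sets was not tested.

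Levels below are log2 processed signals minus the array's 75th percentile, so that 0 is a signal equal to that percentile, and a change is a difference of group means on this scale, with its standard error from limma. A gene was called when limma's p, adjusted by Benjamini-Hochberg over 21296 genes, was under 0.05. The 75th percentile itself was lower after exposure, with signals of 2321.3 to 2684.2 in normoxia, 2214.0 to 2246.7 on day 1, 1566.5 to 1709.9 on day 3 and 1393.3 to 1407.4 on day 7. Spots well above background were 84.5% to 85.6% in normoxia, 80.6% to 82.1% on day 1, 75.7% on both day 3 arrays and 72.6% to 77.0% on day 7. All arrays lay on 1 slide scanned on 1 day, with normoxia and day 1 in its first row and day 3 and day 7 in its other row. Slide row and exposure can therefore be told apart only for day 1 against normoxia and day 7 against day 3, each within a row. Markers of hippocampal neurons were measured in every group (15 genes, summed log2 level 5.80 to 6.41), although Prox1, a marker of dentate granule neurons, fell short of well above background in the day 1 and day 7 arrays, and Tdo2 in those of day 3. Against normoxia, day 1 had 3 of the 15 called higher and 6 lower, day 3 had 9 higher and 2 lower, and day 7 had 4 higher and 6 lower. Of all genes, 15.3% were higher and 20.2% lower on day 1 and 24.2% and 26.2% on day 3. On day 7 these shares were 31.5% and 29.7%.

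Over the 69 genes, the normoxia arrays had median levels of 1.48 and 1.5, those of day 1 had 1.37 and 1.40, those of day 3 had 1.56 and 1.60, and those of day 7 had 1.83 and 1.86. The day 1 arrays were thus below both normoxia arrays and the day 7 arrays above all others. Of the 69 genes, 66 were called by an F-test over the 3 differences from normoxia, against 72.1% of all genes tested. The 3 that were not are Mrpl42, Mrpl47 and Mrps7, with adjusted p of 0.0984, 0.138 and 0.719.

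**Figure D1:**
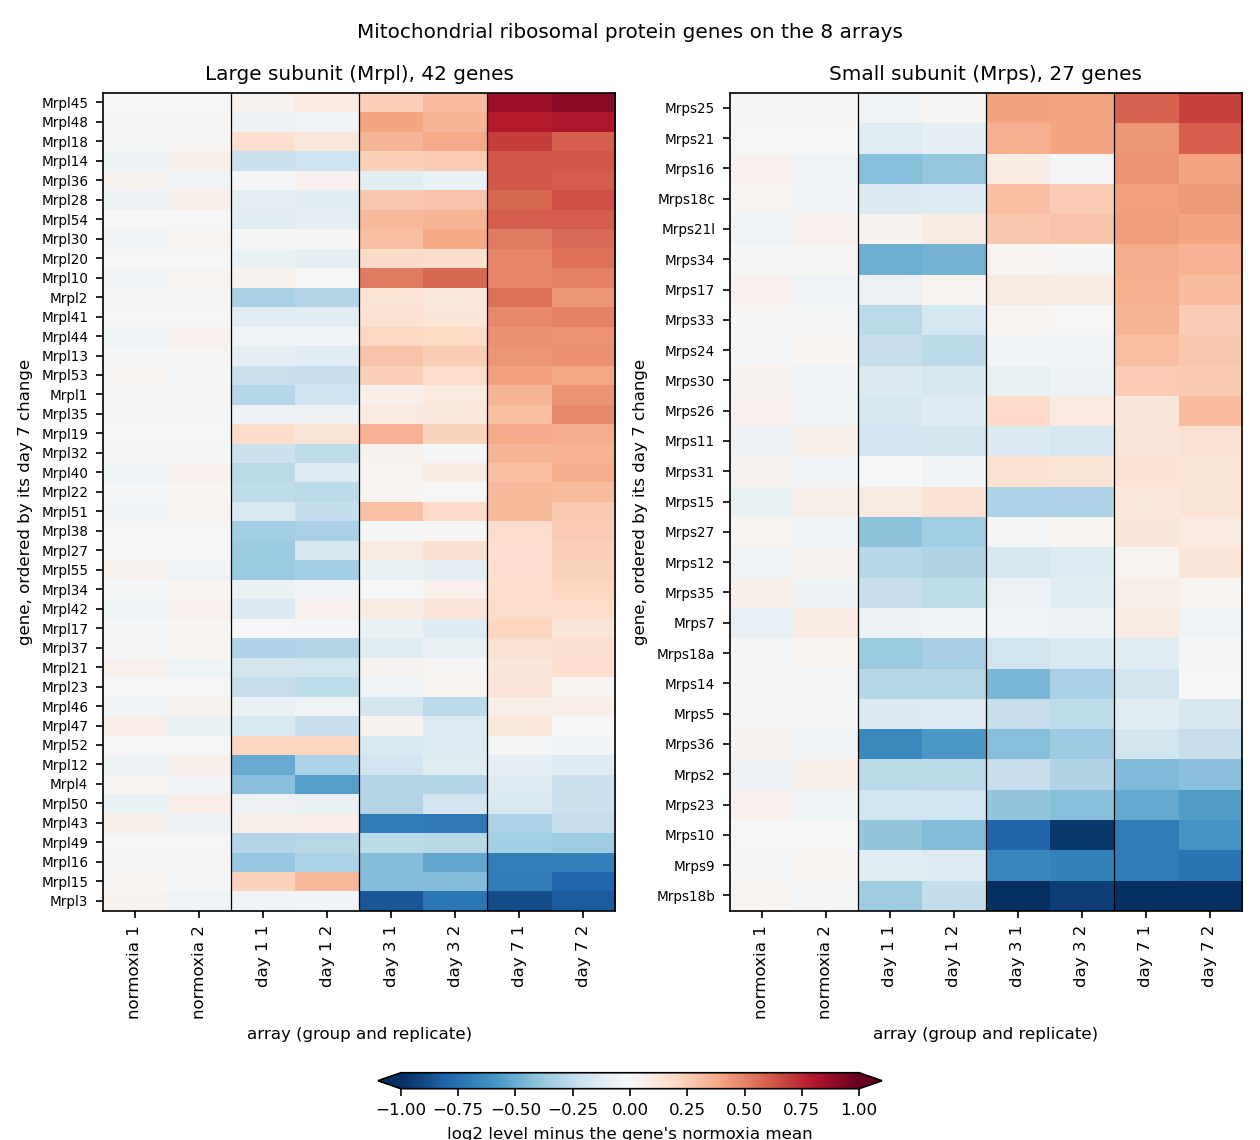
Log2 level of each of the 69 genes on each array minus the gene's normoxia mean, with large subunit genes on the left and small subunit genes on the right, ordered by their day 7 change. Red is above and blue below normoxia, and values beyond 1 are drawn in the end colours (Mrps18b on day 7 fell by 1.80). Most rows are pale blue on day 1 and red on day 7, and a block at the bottom of each panel is blue on day 3 and day 7.

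On day 1 of hypoxia the mitochondrial ribosomal protein genes were mostly lower than in normoxia, by small amounts. Of 69 genes, 35 were called lower and 2 higher, where 20.2% of all genes tested were called lower and 15.3% higher. The median change was -0.16, against -0.07 over all genes. The large subunit had 17 of 42 genes lower and 2 higher (median -0.10) and the small subunit 18 of 27 lower and none higher (median -0.20); the difference between the subunits was not tested. With Mrps18a and Mrps30 placed by their protein and Mrps36 left out, 19 of 44 large and 15 of 24 small subunit genes were lower. By at least 1.5-fold 1 gene was lower, Mrps36, against 5.31% of all genes. Fewer members were called lower when any 1 normoxia or day 1 array was left out, and calls over all genes fell as well. With a trend on probe GC removed, 23 members were called lower, and 3046 of the 21296 genes tested, against 4301 in the main fit. The median change of the members stayed between -0.16 and -0.10 in these settings.

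Mrps36 had the largest fall on day 1. Its levels were 0.78 and 0.85 on day 1, against 1.46 and 1.39 in normoxia. The change was -0.61 ± 0.05 (adjusted p = 0.001), and the 2 groups did not overlap, which the choice of named genes required. Mrpl4, a large subunit protein with a bacterial counterpart, was at 0.45 and 0.32 on day 1 and at 0.90 and 0.84 in normoxia, a change of -0.49 ± 0.06 (adjusted p = 0.00341). Mrps34, a small subunit protein that binds the small ribosomal RNA and is mutated in a mitochondrial disease in humans, was at 2.14 and 2.16 on day 1 and at 2.63 and 2.65 in normoxia. Its change was -0.48 ± 0.03 (adjusted p = 0.000631). Mrps10 was at -1.65 and -1.68 on day 1, against -1.24 and -1.26 in normoxia (-0.41 ± 0.07, adjusted p = 0.00878; 0.0539 without day 1 replicate 2). Mrpl12, the protein of the flexible stalk that recruits translation factors and also binds the mitochondrial RNA polymerase, was at 2.75 and 2.94 on day 1, against 3.20 and 3.31 in normoxia. It fell by 0.41 on the log2 scale (SE 0.08, adjusted p = 0.0134; 0.0682 without normoxia replicate 2), and on day 3 and day 7 its changes of -0.16 and -0.11 were not called (adjusted p = 0.151 and 0.262).

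Both genes called higher on day 1 belong to the large subunit. Mrpl15 was at 0.45 and 0.55 on day 1, against 0.24 and 0.20 in normoxia, a change of 0.28 ± 0.05 (adjusted p = 0.0133). Its call was lost without normoxia replicate 2 (adjusted p = 0.0668) or day 1 replicate 2 (adjusted p = 0.0689). Mrpl52, a protein of the large subunit with no bacterial counterpart, was at -1.97 on both day 1 arrays, against -2.18 on both normoxia arrays (0.21 ± 0.03, adjusted p = 0.00611).

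On day 3 the genes called higher and those called lower were similar in number. Of 69 genes, 20 were called higher than in normoxia and 21 lower, where 24.2% of all genes were called higher and 26.2% lower, so both shares were near those of all genes. The median change of 0.01 (all genes -0.05) was below 0 under quantile scaling, under another background correction, with a trend on brightness removed, and with the probes of a gene averaged. In these settings the median of all genes was 0.005, 0.13, 0.02 and -0.076, in the same order. Centring each array on its median in place of the 75th percentile moved the median of all genes to 0.10. It gave 36 higher and 10 lower members, and 7574 higher and 3786 lower of all genes. The balance on day 3 thus depends on the scaling. The large subunit held 15 higher and 9 lower genes of 42 (median 0.04) and the small subunit 5 higher and 12 lower of 27 (median -0.06).

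The largest rise on day 3 was that of the brighter probe of Mrpl10, whose protein anchors the stalk to the large subunit. This probe was at 5.55 and 5.61 on day 3, against 5.01 and 5.06 in normoxia (0.55 ± 0.04, adjusted p = 0.000509). The dimmer probe was at -2.86 and -2.91 in normoxia. It changed by -0.50 on day 3 in a limma fit over all probes (adjusted p = 0.00257). Which of the probes follows the Mrpl10 transcript was not tested. Mrps25, a mitochondrion-specific small subunit protein, was at 3.26 and 3.25 on day 3, against 2.84 and 2.87 in normoxia (0.40 ± 0.04, adjusted p = 0.00153). Mrps21, Mrpl48 and Mrpl18 rose by 0.38 ± 0.06, 0.37 ± 0.04 and 0.36 ± 0.05 on the log2 scale (adjusted p = 0.0044, 0.000974 and 0.0026). For each of these genes, read for Mrpl10 from the brighter probe, both day 3 arrays lay above both normoxia arrays, as the choice of named genes required.

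The largest fall on day 3 was that of a small subunit gene. Mrps18b, 1 of 3 mammalian relatives of a single bacterial small subunit protein, was at -3.96 and -3.84 on day 3, against -2.88 and -2.92 in normoxia. It fell to 0.50 of its normoxia signal (log2 change -1.0 ± 0.09, adjusted p = 0.00074). Mrps10 was at -2.05 and -2.21 on day 3, against -1.24 and -1.26 in normoxia, a change of -0.88 ± 0.07 (adjusted p = 0.000543). Mrpl3, a core large subunit protein with a bacterial counterpart, was at -1.05 and -0.93 on day 3, against -0.16 and -0.24 in normoxia (-0.79 ± 0.06, adjusted p = 0.000491). Mrpl43 changed by -0.71 ± 0.06 and Mrps9 by -0.67 ± 0.04 (adjusted p = 0.000548 and 0.000236).

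On day 7 the genes were mostly higher than in normoxia, by more than on the earlier days. Of 69 genes, 40 were called higher and 13 lower, where 31.5% of all genes were called higher and 29.7% lower. The median change was 0.20, against -0.03 over all genes. The large subunit had 28 of 42 genes higher and 6 lower (median 0.31), and the small subunit 12 of 27 higher and 7 lower (median 0.12); this difference was not tested. By at least 1.5-fold, 8 genes were higher and 6 lower, where 10.0% of all genes were higher and 17.4% lower by that much. Median centring gave 54 higher and 7 lower with a median of 0.50, on a scale on which the median of all genes stood at 0.26. With the other background correction the members' median of 0.21 was no longer above that of all genes, at 0.22. Quantile scaling gave 0.14 for the members and 0.052 for all genes. With the brightness trend removed these were 0.13 and 0.042.

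Mrpl45 rose most. Its protein lies at the exit of the peptide tunnel and holds the ribosome to the inner membrane, where newly made respiratory subunits are inserted. Its levels were 3.20 and 3.24 on day 7, against 2.34 on both normoxia arrays, and the change was 0.88 ± 0.04, a 1.83-fold rise (adjusted p = 8.69e-05). Most of that change came after day 3, when the gene stood at 2.58 and 2.65. Mrpl48 was at 4.55 and 4.56 on day 7, against 3.75 and 3.77 in normoxia, a 1.74-fold rise (0.80 ± 0.04, adjusted p = 6.27e-05). Mrpl18 was at 3.61 and 3.52 on day 7, against 2.91 and 2.94 in normoxia (0.65 ± 0.05, adjusted p = 0.000224). Mrps25 was at 3.45 and 3.54 on day 7, against 2.84 and 2.87 in normoxia (0.64 ± 0.04, adjusted p = 0.000195). Mrpl14 was at 3.26 and 3.27 on day 7, against 2.59 and 2.69 in normoxia (0.62 ± 0.04, adjusted p = 0.000196). In these 5 genes the day 7 arrays lay above all 6 others.

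Other members rose less or were not called. Mrpl44, which carries a fold related to RNase III, stood at 1.36 and 1.45 under normoxia, 1.37 and 1.38 after 1 day, 1.62 and 1.60 after 3 days and 1.86 on both day 7 arrays. Its day 7 change was 0.45 ± 0.04 (adjusted p = 0.00045). Mrpl54 was at 3.38 on both day 7 arrays, against 2.77 and 2.78 in normoxia (0.61 ± 0.03, adjusted p = 9.45e-05), and with Mrpl48 and Mrps34 it had the smallest p of the F-test. Mrps12, a protein of the decoding centre, was at 1.89 and 1.98 on day 7, overlapping its normoxia levels of 1.82 and 1.89, and its change of 0.07 was not called (adjusted p = 0.232). On day 1 it had been called lower, at 1.58 and 1.56 (-0.29 ± 0.05, adjusted p = 0.00886; 0.0545 without day 1 replicate 2).

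Mrps18b fell most, and its level was lower at each later time. Levels of -2.88 and -2.92 in normoxia were followed by -3.26 and -3.14 at day 1, by -3.96 and -3.84 at day 3, and by -4.60 and -4.80 at day 7. The changes were -0.30 ± 0.09, -1.0 ± 0.09 and -1.80 ± 0.09, and the last is a 3.48-fold lower signal than in normoxia (adjusted p = 0.0497, 0.00074 and 7.92e-05). The day 1 call was lost when any normoxia, day 1 or day 3 array was left out (adjusted p = 0.0643 to 0.202). It was also lost under quantile and median scaling, with the deposited values, with no filter on dim probes, with probes averaged, with a prior trend and with either trend removed (adjusted p = 0.0522 to 0.1). The calls on day 3 and day 7 held under every alternative run. Of its relatives, on day 7 Mrps18c rose by 0.42 ± 0.04 (adjusted p = 0.000399) and Mrps18a changed by -0.07 ± 0.05 (adjusted p = 0.29). Mrpl3 was at -1.09 and -1.03 on day 7, against -0.16 and -0.24 in normoxia (-0.86 ± 0.06, adjusted p = 0.000187). Mrps9 was at -0.27 and -0.31 on day 7, against 0.41 and 0.45 in normoxia (-0.71 ± 0.04, adjusted p = 8.84e-05). Mrpl16, whose bacterial counterpart lies near the tRNA sites, was at -1.86 and -1.85 on day 7, against -1.18 and -1.16 in normoxia (-0.69 ± 0.05, adjusted p = 0.000175). For Mrpl3, Mrps9 and Mrpl16 the groups did not overlap, as the choice of named genes required.

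**Figure D2:**
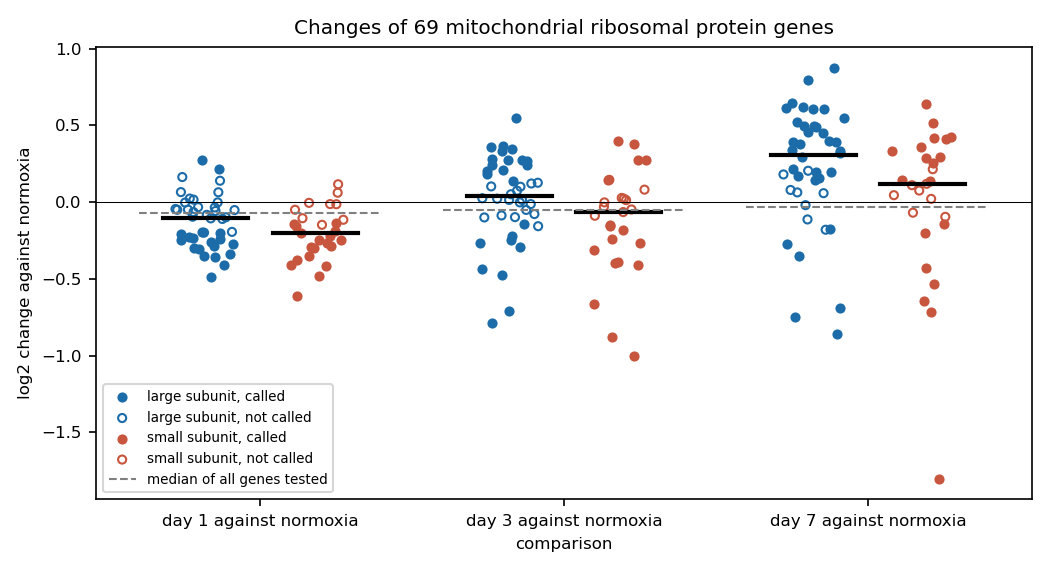
Log2 change against normoxia (vertical axis) of the 42 large subunit genes in blue and the 27 small subunit genes in red, for day 1, day 3 and day 7. Filled points were called, black bars are the medians of each subunit (-0.10 and -0.20 on day 1, 0.04 and -0.06 on day 3, 0.31 and 0.12 on day 7), and dashed lines the medians of all genes tested. The points spread out with time, and the lowest on day 7 is Mrps18b at -1.80.

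Mrpl15 reversed between times. Its levels were 0.24 and 0.20 in normoxia, 0.45 and 0.55 on day 1, -0.21 on both day 3 arrays, and -0.48 and -0.57 on day 7. It was thus highest on day 1 and lowest on day 7, with no overlap between any of the groups. Mrps34 and Mrps16 ran the other way, lowest on day 1 and highest on day 7. The normoxia arrays gave Mrps34 levels of 2.63 and 2.65, the day 1 arrays 2.14 and 2.16, the day 3 arrays 2.67 and 2.65, and the day 7 arrays 3.01 and 2.98. Mrps16, a small subunit protein with a bacterial counterpart, had 3.14 and 3.05 on the normoxia arrays, 2.67 and 2.71 on those of day 1, 3.17 and 3.08 on those of day 3, and 3.55 and 3.49 on those of day 7. In both, the day 3 changes of 0.02 and 0.03 against normoxia were not called (adjusted p = 0.614 for Mrps34 and 0.701 for Mrps16).

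In all, 18 genes were called lower on day 1 and higher on day 7 than in normoxia: Mrpl1, Mrpl2, Mrpl14, Mrpl21, Mrpl22, Mrpl32, Mrpl37, Mrpl38, Mrpl51, Mrpl53, Mrpl55, Mrps11, Mrps16, Mrps18c, Mrps24, Mrps30, Mrps33 and Mrps34. Of all genes tested 5.95% had both calls. Of the 69 members, 35 were called lower on day 1 and 40 higher on day 7. Given these counts, 18 genes with both calls do not show that the 2 calls went together. In single alternatives as few as 9 of the 18 kept both calls, and in each of 19 alternatives Mrpl2, Mrpl38 and Mrps34 did. A set of 20 that shares some of these was called higher on both day 3 and day 7: Mrpl10, Mrpl13, Mrpl14, Mrpl18, Mrpl19, Mrpl20, Mrpl28, Mrpl30, Mrpl41, Mrpl44, Mrpl45, Mrpl48, Mrpl51, Mrpl53, Mrpl54, Mrps18c, Mrps21, Mrps21l, Mrps25 and Mrps31. This pattern was shown by 20.2% of all genes tested, and 11 of the 20 kept it in each of 20 alternatives. The brighter probe stands for Mrpl10 and Mrpl30 here. Called lower at all 3 times were 9 genes, Mrpl4, Mrpl16, Mrpl49, Mrps2, Mrps5, Mrps10, Mrps18b, Mrps23 and Mrps36, and 6.92% of all genes tested. Of these 9, Mrpl16 alone kept all 3 calls in each of 19 alternatives, and median centring left 3. The day 7 call of Mrpl4 (adjusted p = 0.0499) was lost with the deposited values (adjusted p = 0.052), among other settings, and that of Mrps36 (adjusted p = 0.0157) with the GC trend removed (adjusted p = 0.243) and without normoxia replicate 1 or day 7 replicate 2 (adjusted p = 0.0734 and 0.0688). Mrpl42, Mrpl47, Mrps7 and Mrps26 were called at none of the 3 times. The alternatives counted here leave out a fold minimum of 1.5 and a fit with the replicate number as a block. With the fold minimum, Mrps36 alone of the members was called lower on day 1, and 0 were called higher on day 3. The comparisons with normoxia share its arrays, so the lists are not independent of each other.

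Next, the exposed groups were compared with each other. On day 3, 41 of the 69 genes were called higher than on day 1 and 10 lower, where 28.2% of all genes were higher and 23.0% lower, and the median change was 0.21 (all genes 0.03). With the brightness trend removed 26 members were higher, and 5152 of the 21296 genes tested, and the median was 0.10 (all genes 0.031). Quantile scaling gave a median of 0.13 (all genes 0.031). Mrpl10 by its brighter probe, Mrps34 and Mrps21 rose most, by 0.52 ± 0.04, 0.51 ± 0.03 and 0.49 ± 0.06 (adjusted p = 0.000539, 0.000318 and 0.0019). In a limma fit over all probes the dimmer Mrpl10 probe changed by -0.66 (adjusted p = 0.00105). Mrpl43, Mrpl3 and Mrpl15 changed by -0.77 ± 0.06, -0.76 ± 0.06 and -0.71 ± 0.05 (adjusted p = 0.000405, 0.000518 and 0.000436). Mrpl43, a mitochondrion-specific large subunit protein, was at -1.63 and -1.65 on day 3, against -0.87 on both day 1 arrays.

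From day 3 to day 7 the movement was again upward, and here both groups lay in the same slide row but in separate columns. On day 7, 41 genes were called higher than on day 3 and 3 lower, where 24.2% of all genes were higher and 18.3% lower, and the median change was 0.20 (all genes 0.05). The fit of these 2 groups alone called 25 members higher, and 2912 of the 21296 genes tested. Quantile scaling gave a median of 0.12 (all genes 0.046). Mrpl36, a short large subunit protein with a bacterial counterpart, was not called against normoxia before day 7: levels were 1.48 and 1.41 under normoxia, 1.43 and 1.49 after 1 day, 1.34 and 1.38 after 3 days, and 2.07 and 2.05 after 7 days by title. Its change against day 3 was 0.70 ± 0.04 (adjusted p = 0.000637). Mrpl45 rose by 0.60 ± 0.04 and Mrpl43 by 0.43 ± 0.06 (adjusted p = 0.00089 and 0.00339). The 3 genes called lower were Mrps18b (-0.80 ± 0.09), Mrpl15 (-0.31 ± 0.05) and Mrpl16 (-0.21 ± 0.05), with adjusted p of 0.00224, 0.00765 and 0.0174; the call of Mrpl16 was lost without day 3 replicate 1 or either day 7 array (adjusted p = 0.0597 to 0.0761), and under quantile scaling, median centring, normexp correction or a fit of the 2 groups alone (adjusted p = 0.07 to 0.264). Day 1 against normoxia and day 7 against day 3 have no array in common, but were read from 1 fit whose spread is shared by all 8 arrays. In it, 20 genes were called lower in the first comparison and higher in the other. These were 57.1% of the 35 and 48.8% of the 41, where 7.87% of all genes had both calls. Among all 69 members, 41 were higher and 35 lower in these comparisons, which are similar shares. The overlap therefore does not show that the 2 calls went together. With fits of the 2 groups alone, 9 of the 20 kept both calls. Of the 20, 6 kept both calls in each of the same 19 alternatives, which leave out the fold minimum and the block: Mrpl2, Mrpl22, Mrpl55, Mrps16, Mrps24 and Mrps34.

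Against day 1, day 7 showed the most calls, with 52 genes higher and 10 lower, where 35.8% of all genes were higher and 26.5% lower. The median change was 0.41 (all genes 0.07). It was 0.25 under quantile scaling (all genes 0.091) and 0.22 with the brightness trend removed (all genes 0.069). Mrpl48 rose by 0.85 ± 0.04, Mrps34 by 0.84 ± 0.03 and Mrps16 by 0.83 ± 0.05 (adjusted p = 4.68e-05, 4.06e-05 and 0.000135). Mrps18b, Mrpl15 and Mrpl3 changed by -1.50 ± 0.09, -1.02 ± 0.05 and -0.82 ± 0.06 (adjusted p = 0.000104, 7.58e-05 and 0.000186).

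On day 3 and day 7 the size and sign of a gene's change went with the brightness of its probe. Across the 69 genes the Spearman correlation between the change against normoxia and the mean level over the 8 arrays was 0.62 on day 3 and 0.67 on day 7, but 0.11 on day 1. These points share the arrays and their scaling, and a probe's signal depends on the probe as well as on the amount of RNA. Among the 23 dimmest genes, 5 were called higher and 11 lower on day 7 (median -0.15), against 20 higher and 0 lower of the 23 brightest (median 0.49). Among the dimmest on day 3, 2 were higher and 16 lower, against 13 and 0 among the brightest. Calls over all genes were not split by brightness, so the pattern is not shown to be particular to the members. Removing the trend on brightness that all genes showed left 31 higher and 16 lower members on day 7 with a median of 0.13 (all genes 0.042). The correlation of the change with the GC content of the probe was -0.02 on day 7. The part of the falling signals of the day 3 and day 7 arrays in this pattern was not tested.

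**Figure D3:**
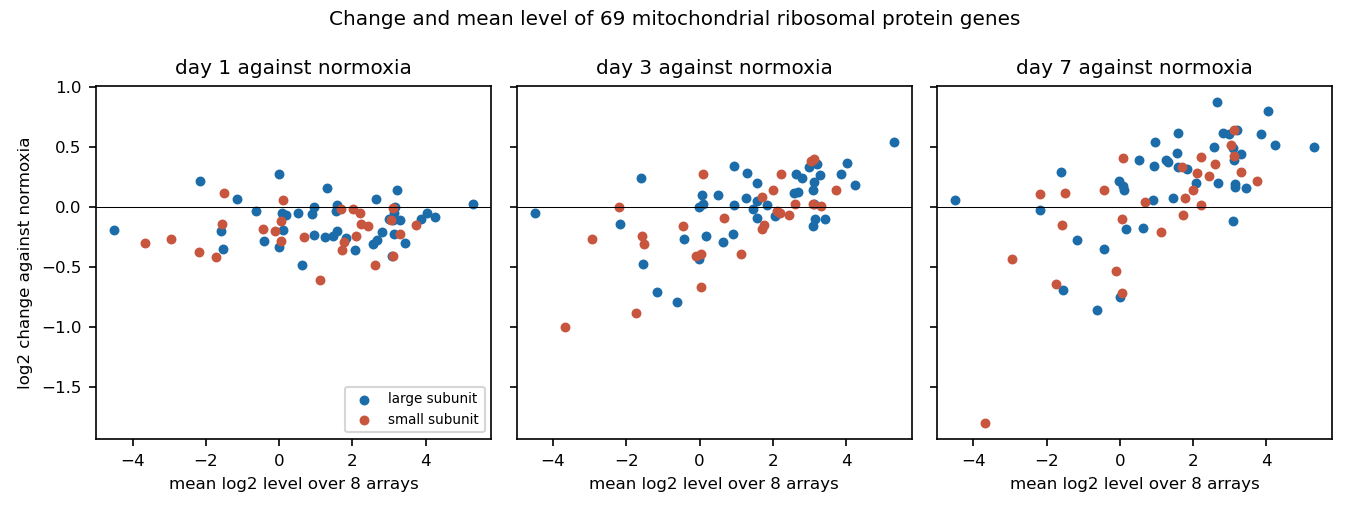
Log2 change against normoxia (vertical axis) of each gene against its mean log2 level over the 8 arrays (horizontal axis), large subunit in blue and small subunit in red. On day 1 the cloud is flat just below 0, and on day 3 and day 7 it rises from left to right (Spearman 0.62 and 0.67); the point at the lower left on both days is Mrps18b.

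For 11 genes another probe was also kept. In 9 of them the probes lie at separate positions, while those of Mrpl41 and Mrpl54 overlap by 44 and 40 bases of the annotated positions and so are no separate readings. In 4 of them the probes were called in opposite directions against normoxia on day 7: Mrpl10, Mrpl17, Mrpl30 and Mrpl35. The first 30 of the 60 bases of each probe are given to show that the probes of a pair differ in sequence. Positions are those of the array's annotation (rn4), and lower case carries no meaning here. Whether a probe also reads other transcripts was not tested.
Mrpl10, brighter probe, chr10:85770281-85770340, plus strand: cttctggtgtgtctgaagacagatactgtg
Mrpl10, dimmer probe, chr10:85768130-85768401, plus strand: agccaggtcctaaagccttttctagaagat
Mrpl17, brighter probe, chr1:163554751-163554800, minus strand: ctttgtagaccatgctggacttgaactaag
Mrpl17, dimmer probe, chr1:163555095-163555154, minus strand: ctagaattgatcctctttgcacagtcgata
Mrpl30, brighter probe, chr9:36849457-36849516, plus strand: aacatcctgtcggtgaatgcaaagcttaaa
Mrpl30, dimmer probe, chr9:36850042-36850101, plus strand: tacatgataggggatgccacacagtttttt
Mrpl35, brighter probe, chr4:105103419-105103478, minus strand: gttcatgacagtcatcactagtgcctgggt
Mrpl35, dimmer probe, chr4:105106986-105111007, minus strand: ggaatattacgtcccctcaatgtctcggtt

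In a fit over all probes, the dimmer Mrpl10 probe was at -3.46 and -3.58 on day 7, against -2.86 and -2.91 in normoxia, a change of -0.63 (adjusted p = 0.000717). The brighter one rose by 0.50 (adjusted p = 0.000367). The dimmer Mrpl17 probe changed by -0.55 and the brighter by 0.17 on day 7 (adjusted p = 0.000177 and 0.0337). For Mrpl35 the values were -0.43 and 0.39 (adjusted p = 0.00363 and 0.00372). The dimmer Mrpl30 probe, at -8.46 and -8.05 on day 7, was not well above background there, against levels of -6.40 and -6.37 in normoxia, while the brighter rose by 0.55 (adjusted p = 0.000388). Mrpl40 had probes called in opposite directions only for day 3 against day 1, at 0.25 for the brighter and -0.40 for the dimmer (adjusted p = 0.0261 and 0.0122). Where no probe is named, the direction given for these 5 genes is that of the brighter probe.

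In the other 6 pairs no comparison had calls in opposite directions. The probes of Mrps21 rose by 0.52 and 0.40 on day 7. The overlapping probes of Mrpl54 rose by 0.61 and 0.65 and those of Mrpl41 by 0.49 and 0.45. For Mrpl2 the brighter probe rose by 0.50 and the dimmer changed by 0.11 without a call (adjusted p = 0.0554), and both fell on day 1, by 0.31 and 0.56. For Mrps16 both probes were lower on day 1, at -0.41 and -0.49, while on day 7 the brighter rose by 0.42 and the dimmer changed by 0.12 without a call (adjusted p = 0.392). For Mrpl50 the dimmer probe was at -6.51 and -7.63 on day 7, against -5.66 and -5.45 in normoxia, but it was well above background on only 1 of the 2 day 7 arrays, so no size is given for its fall, and the brighter, at -0.18, was not called.

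**Figure D4:**
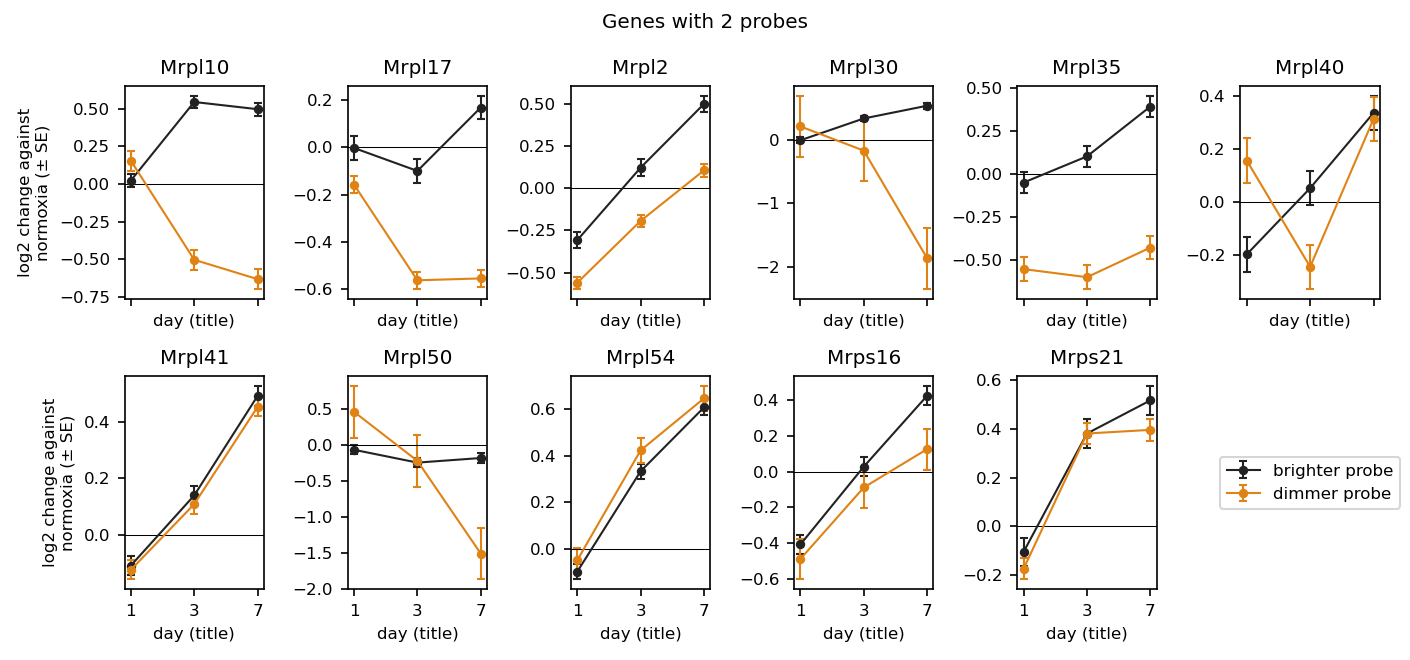
Log2 change against normoxia on day 1, day 3 and day 7 (± SE of the fit, 2 arrays per group) for the brighter probe in black and the dimmer in orange of each gene with 2 probes; the vertical axes differ between panels. The lines part on day 7 in Mrpl10, Mrpl17, Mrpl30 and Mrpl35, and lie close together in Mrps21 and in Mrpl41 and Mrpl54, whose probes overlap.

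Other genes of mitochondrial translation, on lists chosen with earlier results of these data known, moved in both directions. For comparison, 20.2% of all genes tested were called lower and 15.3% higher on day 1, and 29.7% lower and 31.5% higher on day 7. Of 6 mitoribosome subunits with other symbols, 3 were called lower on day 1 and 4 higher and 1 lower on day 7. Gadd45gip1 and Chchd1, both subunit genes, changed by -0.24 and -0.19 on day 1 (adjusted p = 0.0192 and 0.0147) and by 0.58 and 0.42 on day 7 (adjusted p = 0.000405 and 0.000398). Of 14 translation factors, 8 were lower and 0 higher on day 1 (median -0.18), and 5 were lower and 8 higher on day 7 (median 0.18). The elongation factor gene Tufm was lower on day 1 and on day 7, by -0.55 ± 0.06 and -0.31 ± 0.06 (adjusted p = 0.00315 and 0.00978), while the initiation factor gene Mtif2 rose by 0.81 ± 0.04 on day 7 (adjusted p = 9.08e-05).

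Of 19 genes for assembly of the mitoribosome and handling of its RNA, 8 were lower and 0 higher on day 1. On day 7, 6 were higher and 6 lower, both near the shares of all genes. Malsu1, which binds the large subunit during its assembly, changed by -0.43 on day 1 and Gtpbp10, a GTPase of large subunit assembly, by 0.71 on day 7 (adjusted p = 0.00159 and 0.000123). Of 19 genes for charging mitochondrial transfer RNAs, 6 were lower and 1 higher on day 1, and 9 were higher and 5 lower on day 7. Lars2, the leucyl-tRNA synthetase, fell by 2.77 on day 7 (SE 0.16, adjusted p = 0.000114). Of 14 genes of mitochondrial transcription and its nuclear regulators, 7 were lower and 1 higher on day 1, and 8 were higher and 5 lower on day 7. The gene of the transcription factor Nrf1 rose by 0.69 ± 0.05 on day 7 and that of the coactivator Ppargc1b fell by 1.12 ± 0.06 (adjusted p = 0.000192 and 0.000117).

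The counts can be set beside those of the cytosolic ribosomal proteins and of the nuclear subunits of oxidative phosphorylation. The genes of S6 kinases, whose symbols begin like those of ribosomal proteins, and Cox4nb, Atp5s and Atp5sl were left out of these 2 lists after their members were read. On day 1, 48 of 81 oxidative phosphorylation genes were called lower and 1 higher (median -0.24), against 10 lower and 6 higher of 89 cytosolic ribosomal proteins (median -0.02). On day 7, 49 of 81 oxidative phosphorylation genes were higher and 16 lower (median 0.25), and 81 of 89 cytosolic ribosomal proteins were higher and 1 lower (median 0.48). The differences between the lists were not tested.

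Markers of other tissue moved with the groups. All 15 choroid plexus markers were called lower on day 1 and on day 7, with a summed log2 level of 6.92 to 7.03 in normoxia, 0.85 to 0.90 on day 1, 7.34 to 7.44 on day 3 and 3.30 to 3.41 on day 7; on day 1 Cldn2, Kl, Mfrp, Prlr, Tmem27 and Tmem72 were not well above background. All 14 striatal markers were called higher on day 1, with a summed level of 2.45 to 2.46 in normoxia, 5.33 for day 1, 2.42 to 2.44 for day 3 and 2.20 to 2.26 for day 7. All 8 red blood cell markers were higher at each time (7.36 to 7.49 in normoxia, 8.18 to 8.22 on day 1, 8.79 to 8.88 on day 3 and 9.10 to 9.14 on day 7), and all 9 leptomeningeal markers lower. Of 8 endothelial markers, 5 were higher and 0 lower on day 1, and both later times had 6 higher and 1 lower, with a summed level of 3.07 to 3.11 in normoxia, 4.74 to 4.77 for day 1, 4.50 to 4.56 for day 3 and 4.13 to 4.14 for day 7. Of 7 microglial markers, 2 were higher and 1 lower on day 1, and both later times had 0 higher and 5 lower (summed level 3.17 to 3.22 in normoxia and 2.98 to 3.05 on day 7). The part of these tissues in the changes of the mitochondrial ribosomal protein genes was not tested. In bulk tissue, fewer cells of a type and less RNA per cell cannot be told apart.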

How the data were processed

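Hippocampal total RNA was labelled with Cy3 from an oligo dT primer, per the labels' protocols, and hybridised to 8 Agilent rat arrays. The deposited scanner output, from Agilent Feature Extraction 11.5.1.1 per the file headers, holds processed signal intensity per spot, background-subtracted and not scaled between arrays. The authors' deposited value table is in log2 units. Its scaling is not given in the sources used here, but 96.7% to 97.4% of its values were within 0.05 of log2 processed signal minus 1 constant per array close to the 75th percentile. Its column medians were -3.23 to -3.53.

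From the processed signal, control and outlier-flagged spots were dropped, replicate spots of a probe averaged on the log2 scale, and the 75th percentile of each array subtracted. A probe was kept if the 2 arrays of 1 group or more had it well above background (24678 probes), and each gene was read from its probe with the highest mean (21296 genes). limma 3.58.1 in R 4.3.3 fitted 4 group means over all 8 arrays (4 residual degrees of freedom) with empirical Bayes, with two-sided p adjusted by Benjamini-Hochberg across the 21296 genes; the code was tested on simulated data. Depth does not apply to arrays, whose number, 2 per group, limits the precision. The median absolute difference between a group's 2 arrays was 0.03 to 0.05 for the 69 genes.

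The members, lists and tests were chosen with earlier results of these data known. Genes named with values were, among called members, the 5 largest rises and falls against normoxia with no overlap between groups, the 3 largest each way between exposed groups, the 3 smallest F-test p, genes with probes called in opposite directions, and Mrpl10, Mrpl12, Mrpl44, Mrpl45, Mrps12, Mrps16, Mrps22 and Mrps34. Up to 4 genes of each other list could be named. Arrays with the same number in different groups were not pairs: their deviations from the group means correlated at -0.15 to 0.05. Alternatives were quantile and median scaling, normexp background correction, the deposited values, other filters and probe rules, a prior trend, trends on probe GC and brightness removed, a fold minimum of 1.5, fits of 2 groups, the number as a block, and each array left out. Promoters and current symbols are RefSeq's (GRCr8); 65 genes were matched by accession and 5 by symbol.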

Additional observations from a re-analysis of the deposited data

Results flagged for a closer look

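Named genes that were called in opposite directions against normoxia at 2 times, and whose difference between these times was itself called, are listed here. Mrpl14 was lower on day 1 and higher on day 3 and day 7, and differed from day 1 by 0.45 on day 3 and 0.83 on day 7. Its day 1 call was lost with the fold minimum of 1.5 and in 5 further alternatives. Among these were the fit of 2 groups and the GC trend removed (adjusted p = 0.0602 and 0.121). The fits without normoxia replicate 2 or either day 1 array, with changes of -0.16, -0.205 and -0.213, also lost it. Mrps34 and Mrps16 were lower on day 1 and higher on day 7, with day 7 above day 1 by 0.84 and 0.83. Mrpl15 was higher on day 1 and lower later, and its differences from day 1 were -0.71 on day 3 and -1.02 on day 7. Mrpl52, higher on day 1 and lower on day 3, differed by -0.36 between them. Its day 3 call was lost under quantile scaling, normexp correction, both trend removals, the fit of 2 groups and without any normoxia or day 3 array (adjusted p = 0.0547 to 0.707), and turned to 0.005 under median centring. The day 1 call of Mrpl15 was lost without normoxia replicate 2 or day 1 replicate 2, and the day 7 call of Mrps16 with the brightness trend removed (adjusted p = 0.0525). All values are log2 differences of limma, and these genes were picked for their direction.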

How the results depend on the processing

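Limits: 2 arrays per group of unstated origin, falling signal, and probes of a gene that can disagree. A slide row also separates day 3 and day 7 from normoxia, and slide columns separate the groups within a row. The counts and medians kept their direction under the deposited values, both other filters and the replicate block, which moved no count by over 1.5 times (33 lower on day 1, 38 higher and 13 lower on day 7). The replicate numbers were not treated as pairs in the main fit. The causes of the changes below were not tested.

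Without each array in turn, against normoxia the count of genes called higher was 1 to 3 on day 1, 15 to 20 on day 3 and 36 to 38 on day 7, the count called lower 18 to 31, 15 to 20 and 10 to 13, and the median change -0.16 to -0.13, 0.00 to 0.02 and 0.18 to 0.24. For day 3 against day 1 these were 30 to 40, 8 to 10 and 0.18 to 0.22, for day 7 against day 3 they were 28 to 38, 2 to 4 and 0.18 to 0.22, and for day 7 against day 1 they were 47 to 51, 8 to 9 and 0.37 to 0.42. The F-test called 60 to 65 genes. Leaving out both day 1 arrays, an alternative chosen after seeing the data, gave 38 higher and 13 lower on day 7.

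Quantile scaling moved the median change to -0.048 on day 3 and 0.14 on day 7 against normoxia (all genes 0.005 and 0.052). Between exposed groups it gave 0.13 for day 3 against day 1 and 0.12 for day 7 against day 3 (all genes 0.031 and 0.046). For day 7 against day 1 it gave 0.25 (all genes 0.091). Median centring gave medians of -0.13, 0.16 and 0.50 against normoxia and 0.33, 0.35 and 0.67 between exposed groups in the same order, with the median of all genes at -0.04, 0.10, 0.26, 0.15, 0.20 and 0.34; it called 36 genes higher and 10 lower on day 3, 7 lower on day 7, and 4 lower on day 7 against day 1. Normexp correction gave medians of -0.02 on day 3 and 0.37 for day 7 against day 1, and moved the median of all genes to 0.13 on day 3, 0.22 on day 7 and 0.27 for day 7 against day 1. Averaging a gene's probes gave -0.031 on day 3, 0.18 on day 7 and 0.35 for day 7 against day 1 (all genes -0.076, -0.078 and 0.027). A prior trend gave 4 genes called higher on day 1.

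With the GC trend removed, 4 genes were called higher and 23 lower on day 1 and 6 lower for day 7 against day 3, with medians of -0.10, 0.044 and 0.24 against normoxia, 0.14 for day 3 against day 1, 0.17 for day 7 against day 3 and 0.29 for day 7 against day 1. With the brightness trend removed the medians were -0.13, -0.062 and 0.13, then 0.10, 0.14 and 0.22, with 26 genes called higher for day 3 against day 1 and 5 lower for day 7 against day 3. A fold of at least 1.5 left 0 higher and 1 lower on day 1, 0 and 5 on day 3, 8 and 6 on day 7, 0 and 4 for day 3 against day 1, 2 and 1 for day 7 against day 3, 15 and 4 for day 7 against day 1, and 24 by the F-test. Fits of the 2 groups alone gave 25 higher for day 7 against day 3, and 2912 of all genes.

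The direction of some named genes turned. Against normoxia on day 7, quantile scaling gave -0.068 for Mrpl17 and 0.17 for Mrpl52; median centring gave 0.12 for Mrpl4, 0.02 for Mrpl43, 0.28 for Mrpl52 and 0.091 for Mrps36; the GC trend gave 0.10 for Mrpl52, and the brightness trend -0.091 for Mrpl17 and 0.14 for Mrpl52. On day 3 median centring gave 0.005 for Mrpl52. For day 7 against day 1, Mrpl17 was at -0.10 under quantile scaling and -0.11 with the brightness trend removed, and Mrpl52 and Mrps10 at 0.033 and 0.038 under median centring. With probes averaged, the pairs described above gave -0.25 for Mrpl35 on day 3, and on day 7 -0.068 for Mrpl10, -0.19 for Mrpl17, -0.66 for Mrpl30 and -0.02 for Mrpl35. The same gave -0.068, -0.019 and -0.076 for Mrpl10, Mrpl30 and Mrpl40 for day 3 against day 1, -0.75 for Mrpl30 for day 7 against day 3, and -0.16, -0.11 and -0.77 for Mrpl10, Mrpl17 and Mrpl30 for day 7 against day 1.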
